A study of Mus musculus with 2 samples.

Results

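The kinases that phosphorylate eIF2alpha, their regulators and the eIF4E-binding proteins were followed in Trmt6 WT and Trmt6 cKO hematopoietic stem and progenitor cells. The members were 9 gene symbols, chosen by name, among the 27998 genes counted in both libraries: the kinases Eif2ak1, Eif2ak3 and Eif2ak4, their regulators Gcn1l1 and Impact, the phosphatase subunit Ppp1r15b, and Eif4ebp1, Eif4ebp2 and Eif4ebp3. scRNA-seq was carried out on sorted LSK cells (Lin- Sca-1+ c-Kit+ bone marrow cells) of 3-month-old mice on a C57BL/6 background, with 1 library of Trmt6fl/fl cells (WT) and 1 library of Trmt6fl/fl, MX1-cre cells (cKO). Mx1-Cre is an interferon-inducible recombinase that is switched on by pIpC in blood cells and in other tissues; the study's text describes Mx1-Cre and pIpC in both genotypes, whereas the labels give the recombinase to the cKO library only. Trmt6 encodes the partner subunit of the enzyme that places m1A on tRNA. The number of mice behind each library was not stated, and with 1 library per genotype no difference below has a replicate check.

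Cells answer amino acid shortage, unfolded protein, heme shortage or double-stranded RNA through kinases that phosphorylate eIF2alpha, which slows the start of translation on most mRNAs and favors translation of the transcription factor ATF4. The 4E-binding proteins act at the other entry point of translation: in their unphosphorylated form they hold the cap-binding protein eIF4E away from the ribosome-recruiting complex, and mTORC1 releases that hold by phosphorylating them. mRNA counts show the levels of these transcripts and say nothing of the phosphorylation through which the kinases and 4E-binding proteins act.

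After filtering, the WT library retained 8148 cells with 41570806 UMIs and the cKO library 8483 cells with 87140972 (unique molecular identifiers, each a counted mRNA molecule). The median cell held 4125 UMIs in WT and 10042 in cKO. Values are UMIs of a gene summed over cells scaled to a common total (CPM, counts per 1e6 UMIs), log2 ratios are cKO over WT, and every interval is an exact 95% interval that covers counting error only. Trmt6 itself, counted at its 3' end and so not a check of the deleted exon, was counted at 63.6 CPM in the WT library and 50.5 CPM in the cKO library. The sort markers did not move together, with Kit at 63.4 and 21.6 CPM and Ly6a, which encodes Sca-1, at 34.3 and 142 CPM. The GMP marker list summed to 6447 CPM in WT and 741 in cKO, and the neutrophil list to 5416 and 7.96 CPM. These shifts in marker levels go with genotype, and whether they come from the mix of cells or from levels within cells was not tested. A gene's level over all cells thus cannot be told apart from the mix of cells that carry it. The values within marker gates are given for that reason. The libraries had 24 cell barcodes in common.

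Eif4ebp1 was the 1 member that was higher in cKO past a log2 ratio of 0.5, and it was higher by far more than that. It encodes 4E-BP1, the best-studied mTORC1 substrate of its family, and lies on mouse chromosome 8 (GRCm38, 27260329 to 27276674, plus strand), where no other gene overlaps it. In the WT library 6183 Eif4ebp1 UMIs gave 149 CPM (interval 145 to 152), and in the cKO library 42812 UMIs gave 491 CPM (487 to 496). This was a 3.30-fold difference, a log2 ratio of 1.72 (1.69 to 1.76). Among the 9149 genes that reached 5 CPM in either library it ranked 97 from the top, with 98.9% of genes below it.

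The other measured members sat near or below the middle of all genes. Of the 9 members, 7 reached 5 CPM in a library; 1 of these was higher past a log2 ratio of 0.5, where 8.84% of all genes were, and 0 were lower past it, where 17.8% of all genes were. The median log2 ratio of these 7 members was -0.24, beside -0.07 over all genes. In all, 809 genes were higher and 1627 lower past 0.5 on the CPM scale, while TMM scaling, which lifts every cKO ratio by about 0.10, gave 1169 and 1213. Of the 7, the interval lay above 0 for 1 member and below 0 for 4, beside 33.1% and 45.7% of all genes, so an interval off 0 was common at this depth and says little of the members as a group. Eif2ak3, under 5 CPM, also had its interval below 0, and Eif4ebp3 had no UMI. The plot of member levels in both libraries shows Eif4ebp1 far above the others in both genotypes and as the only one that separated upward.

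**Figure D1:**
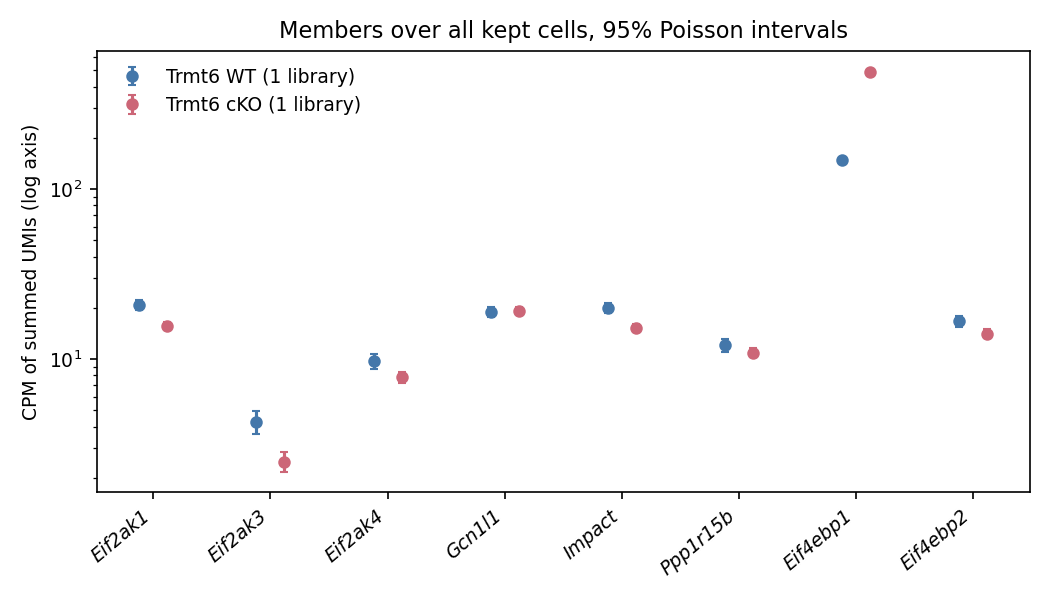
Level of 8 members (CPM of UMIs summed over all kept cells, log axis) in the WT library (blue) and the cKO library (red), with 95% Poisson intervals, many smaller than the point. Eif4ebp1 stood at 149 and 491 CPM, and the other members lay between 2.48 and 20.8 CPM; Eif4ebp3, with 0 UMIs, is not drawn.

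Eif2ak1 encodes HRI, the heme-regulated kinase. It stood at 20.8 CPM (19.4 to 22.2) among WT cells and at 15.5 CPM (14.7 to 16.4) among cKO cells, which is -0.42 (-0.55 to -0.30) as a log2 ratio. The level was thus lower in cKO by more than counting error, and 22.0% of all genes had a lower ratio still.

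Eif2ak3 encodes PERK, the kinase of the endoplasmic reticulum, and was the kinase with the fewest UMIs. Its WT level was 4.23 CPM (3.63 to 4.91) and its cKO level 2.48 CPM (2.16 to 2.83), which rest on 176 and 216 UMIs, with a log2 ratio of -0.77 (-1.07 to -0.48). It did not reach 5 CPM in either library and so was not counted against the 0.5 limit. By cell cycle markers its ratio was -0.37 (-0.90 to 0.18) in cells with no S or G2/M call, where the interval crossed 0, -1.24 (-1.76 to -0.72) in cells with S markers, where WT reached 5.20 CPM, and -0.64 (-1.16 to -0.11) in cells with G2/M markers.

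Eif2ak4 encodes GCN2, the kinase that senses uncharged tRNA. It stood at 9.69 CPM (8.77 to 10.7) among WT cells and at 7.80 CPM (7.23 to 8.41) among cKO cells, which is -0.31 (-0.49 to -0.13) as a log2 ratio. The ratio of 29.1% of all genes was lower than that of Eif2ak4. Intervals of the 3 kinases among the members lay below 0 over all cells, as did those of 45.7% of all genes, and neither of the 2 kinases at 5 CPM was past 0.5.

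Eif2ak2 encodes PKR, the double-stranded RNA kinase, and completes the family although it is not a member. It stood at 24.4 CPM for WT and 20.6 CPM for cKO, a log2 ratio of -0.25. Counted together the 4 kinases summed to 59.2 CPM for WT against 46.4 CPM for cKO. Most of the proportions were close: Eif2ak1 gave 35.2% of kinase UMIs (33.3 to 37.1) in WT against 33.5% (32.0 to 35.0) in cKO, and Eif2ak4 gave 16.4% and 16.8%. The share of Eif2ak3 was lower in cKO, 5.34% (4.67 to 6.08) against 7.15% (6.17 to 8.25), with intervals that did not overlap, and that of Eif2ak2 went from 41.3% to 44.4%. The lower share of Eif2ak3 depended on the cells counted. With the same mix of gates its log2 ratio was -0.44, beside -0.38 for Eif2ak1 and -0.43 for Eif2ak4. In cells with no S or G2/M call these were -0.37, -0.43 and -0.40, and Eif2ak2 was at -0.26. In cells with S markers Eif2ak3 was at -1.24, beside -0.52 for Eif2ak1, -0.25 for Eif2ak4 and -0.20 for Eif2ak2. In the same order these were -0.64, -0.31, -0.31 and -0.28 with G2/M markers. They were -0.82, -0.41, -0.38 and -0.37 in cells that met no gate. UMIs of this 3' assay count molecules and were not divided by gene length.

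Of the regulators of GCN2, Impact was lower in cKO, and Gcn1l1 could not be told apart between genotypes. Gcn1l1 encodes GCN1, the ribosome-bound activator of GCN2, and had 18.9 CPM (17.6 to 20.2) among WT cells and 19.3 CPM (18.4 to 20.2) among cKO cells. Its log2 ratio of 0.03 had an interval from -0.09 to 0.16, so a difference beyond that range was not seen in either direction, although cells thinned to 2000 UMIs gave -0.22. Impact encodes a protein that competes for GCN1 and restrains GCN2. It stood at 20.1 CPM (18.7 to 21.5) among WT cells and at 15.3 CPM (14.5 to 16.2) among cKO cells, which is -0.39 (-0.52 to -0.26) as a log2 ratio. With each cell scaled before averaging the ratio was -0.59, and with cells thinned to 2000 UMIs it was -0.67, which puts Impact past the 0.5 limit.

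Ppp1r15b encodes CReP, the constitutive subunit that directs protein phosphatase 1 to eIF2alpha. WT cells held it at 12.1 CPM (11.0 to 13.2), cKO cells at 10.9 CPM (10.2 to 11.6), and its log2 ratio of -0.15 had an interval from -0.31 to 0.01. Its stress-induced counterpart Ppp1r15a, which encodes GADD34, stood at 107 and 58.4 CPM, a log2 ratio of -0.88.

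Among the 4E-binding proteins, Eif4ebp2 encodes 4E-BP2, a second inhibitor of eIF4E. It stood at 16.7 CPM (15.5 to 18.0) among WT cells and at 14.1 CPM (13.3 to 14.9) among cKO cells, which is -0.24 (-0.38 to -0.11) as a log2 ratio. Eif4ebp1 and Eif4ebp2 thus stood on opposite sides of 0. The family summed to 165 CPM in WT and 505 CPM in cKO, and the share of Eif4ebp1 in it went from 89.9% (89.2 to 90.6) to 97.2% (97.1 to 97.4). Eif4ebp3 had 0 UMIs in both libraries, which allows up to 0.0722 CPM in WT and 0.0344 CPM in cKO at 3 counts per library, and up to 0.0368% and 0.0354% of cells with a UMI. GENCODE M21 places another gene over it on the same strand, and Cell Ranger leaves out reads that match several genes; the part of this in the count of 0 was not tested.

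**Figure D2:**
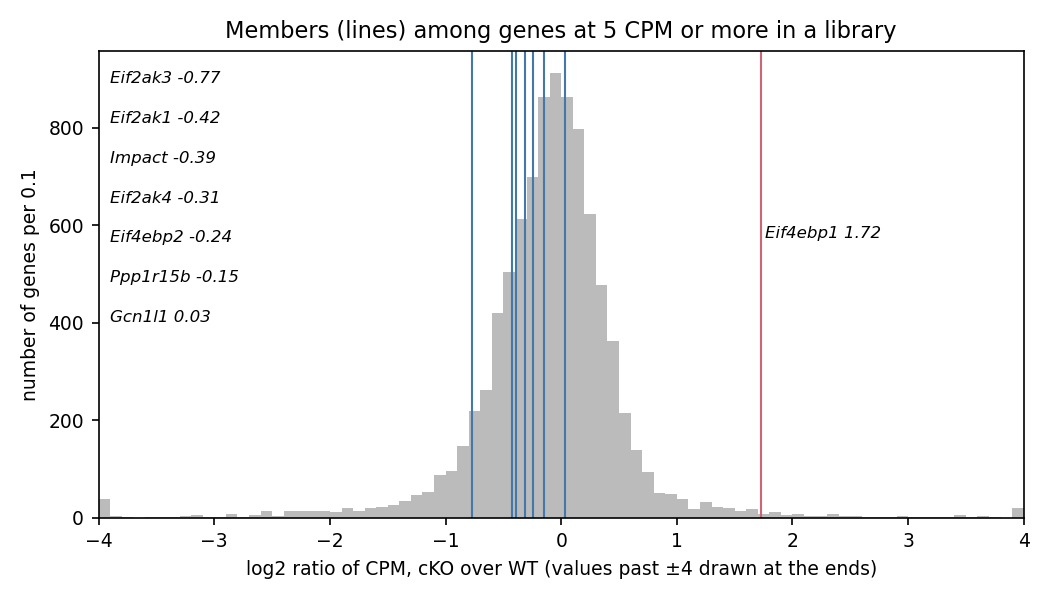
Log2 ratio of CPM, cKO over WT, for the 9149 genes that reached 5 CPM in either library (gray, genes per bin of 0.1; ratios past 4 in size are drawn at the ends), with the members as vertical lines. Eif4ebp1 at 1.72 lay in the upper tail, while the other 7 measured members lay between -0.77 and 0.03 within the main body of the distribution.

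At equal depth the difference in Eif4ebp1 was seen across many cells rather than in a few. When each cell was thinned to 2000 UMIs, at least 1 Eif4ebp1 UMI was present in 25.1% of the 7943 cells from WT (24.2 to 26.1) but in 57.4% of the 8378 from cKO (56.3 to 58.5); without thinning these shares were 47.8% and 91.1%. Cells with 2 UMIs made up 3.35% in WT and 16.2% in cKO, and cells with 3 or more made up 0.428% and 7.72%. The highest count in a thinned cell was 6 in WT and 7 in cKO. The variance of the thinned counts was 1.04 times their mean in WT and 1.14 times in cKO. No gated cell type is known to lack Eif4ebp1, so no background share could be set beside these.

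**Figure D3:**
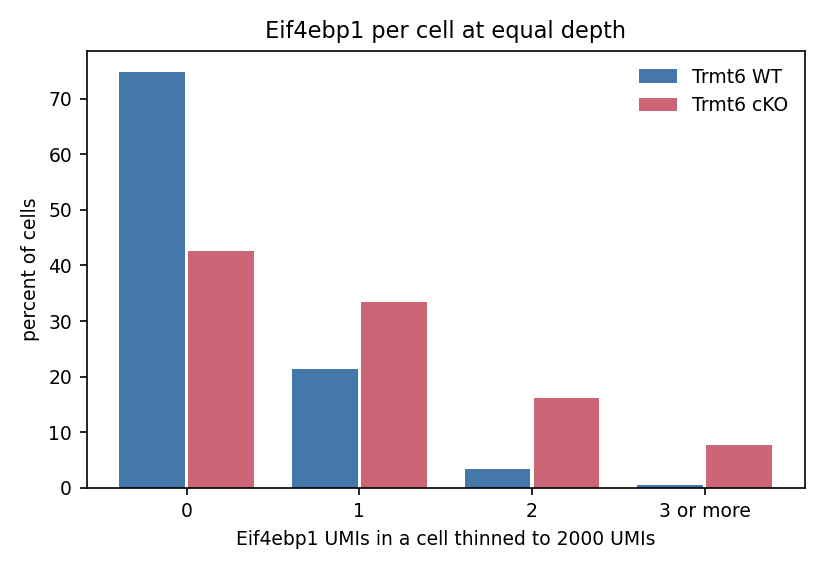
Percent of cells (bars from 0) with 0, 1, 2 or 3 or more Eif4ebp1 UMIs after each cell was thinned to 2000 UMIs, in the WT library (blue, 7943 cells) and the cKO library (red, 8378 cells). Cells with none made up 74.9% in WT and 42.6% in cKO, and each class above 0 was larger in cKO.

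The other members were sparse in single cells at that depth. Impact was found in 4.88% of cells from WT (4.42 to 5.38) against 3.14% from cKO (2.78 to 3.54), and Eif2ak1 in 3.79% (3.38 to 4.23) and 2.98% (2.63 to 3.37). Eif2ak3 was the rarest of those detected, in 0.680% and 0.466% of cells. The unthinned shares ran the other way for both of the former, 9.43% and 14.2% for Impact and 9.72% and 14.4% for Eif2ak1, as the cKO cells held more UMIs.

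Cells were then gated by lineage markers, and 5 gates held at least 50 cells in each library. They were the HSC gate (592 WT and 1114 cKO cells), the LMPP gate (750 and 139), the GMP gate (1180 and 74), the megakaryocyte gate (275 and 55) and a gate set on T and NK cell markers (129 and 143). In the last, Cd3e, which encodes a part of the T cell receptor complex, had 0 UMIs in WT, and Ccl5 and Lck led the WT cells by fold over other cells, so it is called the Ccl5/Lck gate. Another 4641 WT and 6596 cKO cells met no gate. Since the gate markers themselves differed between the libraries, gate sizes are not compared.

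Eif4ebp1 was higher in cKO in 5 of 5 gates, in the cells that met none and in those that met several. In the HSC gate WT cells held 173 CPM (155 to 192) and cKO cells 436 CPM (423 to 450), a log2 ratio of 1.33 (1.18 to 1.50). In the LMPP gate it was at 122 and 386 CPM, a log2 ratio of 1.66 (1.47 to 1.85). These 2 gates thus differed by 2.52-fold and 3.16-fold between genotypes.

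In the GMP gate, with 74 cKO cells, Eif4ebp1 was at 158 and 387 CPM, a log2 ratio of 1.29 (1.14 to 1.43). In the megakaryocyte gate it was at 180 and 496 CPM, a log2 ratio of 1.46 (1.21 to 1.71). In the Ccl5/Lck gate it was at 116 CPM on 60 UMIs and 501 CPM on 714 UMIs, a log2 ratio of 2.10 (1.73 to 2.52). The interval of the Ccl5/Lck gate did not meet those of the HSC and GMP gates, a comparison of cells within 1 library per genotype. It missed that of the megakaryocyte gate by 0.02, and with another thinning seed (1.56 to 2.32 against 1.23 to 1.69), halved gate sums or gates on all UMIs these intervals overlapped. Cells that met no gate were at 145 and 506 CPM, a log2 ratio of 1.81 (1.75 to 1.86). Cells that met several gates, 244 in WT and 103 in cKO, had a ratio below those of the 5 gates, at 156 and 341 CPM, a log2 ratio of 1.13 (0.85 to 1.41).

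The megakaryocyte, HSC, GMP and LMPP gates stood in the same order in both genotypes, and the Ccl5/Lck gate was last in WT, on 60 UMIs, and first in cKO. In WT Eif4ebp1 was highest in the megakaryocyte and HSC gates, followed by the GMP gate, none of which could be told apart from its neighbor, then lower in the LMPP and Ccl5/Lck gates, which could not be told apart (0.07, -0.32 to 0.49), with a step between GMP and LMPP of 0.37 on the log2 scale (0.22 to 0.53). In cKO the Ccl5/Lck and megakaryocyte gates were highest, above HSC by a small step of 0.19 (0.02 to 0.35) from the megakaryocyte gate. HSC was above GMP by 0.17 (0.04 to 0.31), and GMP and LMPP could not be told apart. The cKO values of the megakaryocyte and GMP gates came from 55 and 74 cells. The intervals leave out differences between cells, so steps this small are not firm.

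Gates with few cells were not compared, and their Eif4ebp1 levels are given as values. The 54 WT cells of the neutrophil gate, which had no cell in cKO, were at 78.0 CPM (52.6 to 111). The erythroid gate was at 244 CPM (191 to 309) in 37 WT cells and 376 CPM (307 to 454) in 20 cKO cells, and the MHC class II gate at 60.0 CPM (24.1 to 124) in 30 and 399 CPM (327 to 482) in 42 cells. The B cell gate was at 182 CPM on 8 UMIs in WT and 351 CPM (301 to 407) in cKO. The mast cell and basophil gate was at 244 CPM on 5 UMIs in WT and 307 CPM (211 to 431) in cKO.

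**Figure D4:**
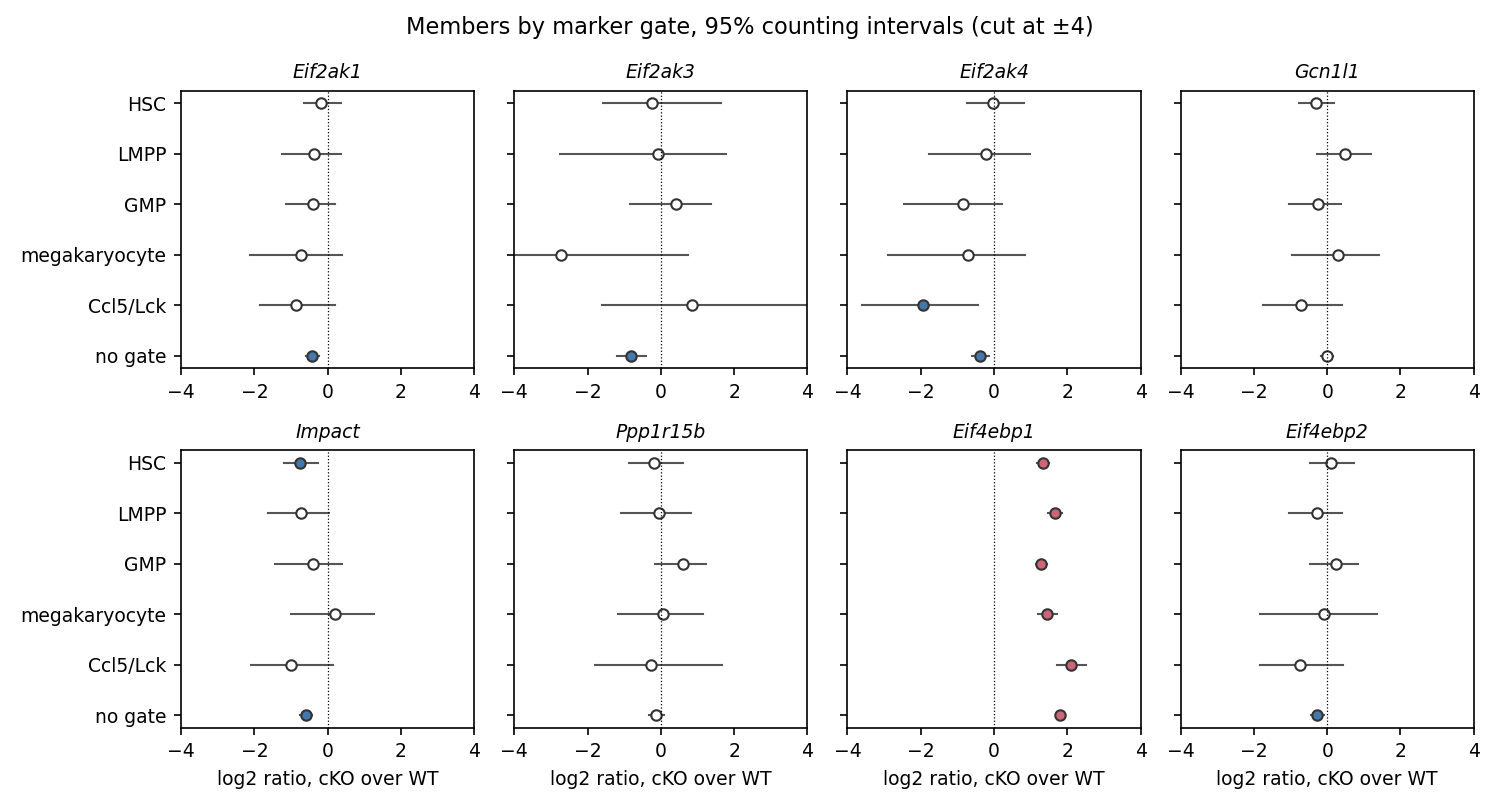
Log2 ratio of CPM, cKO over WT, of 8 members in 5 marker gates and in cells that met no gate; lines are 95% counting intervals cut at 4, filled points have an interval that excludes 0 (red higher, blue lower in cKO). Eif4ebp1 lay between 1.29 and 2.10 in the 5 gates, while nearly all intervals of the other members crossed 0 within gates.

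Few of the other members could be told apart between genotypes within a gate, where UMIs were scarce. In the HSC gate 1 member was higher and 1 lower past 0.5, beside 10.5% and 26.3% of all genes. The lower member was Impact, with 54 WT UMIs at 26.9 CPM (20.2 to 35.2) and 149 cKO UMIs at 16.2 CPM (13.7 to 19.0), a log2 ratio of -0.74 (-1.19 to -0.26). Ratios in that gate of Eif2ak1 at -0.18 (-0.65 to 0.35), Eif2ak4 at -0.02 (-0.74 to 0.83) and Gcn1l1 at -0.31 (-0.77 to 0.19) all had intervals across 0.

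In the LMPP gate 1 member was higher and 1 lower, beside 15.4% and 23.3% of all genes. The lower one was again Impact, at 20.9 and 12.4 CPM, with a log2 ratio of -0.72 (-1.64 to 0.05). Gcn1l1 was at 14.5 and 20.1 CPM there, a log2 ratio of 0.48 (-0.28 to 1.19), just inside the limit. In the GMP gate 2 members were higher and 1 lower, beside 15.9% and 16.6% of all genes: Ppp1r15b joined Eif4ebp1 with 0.60 (-0.15 to 1.23), or 0.04 with gates on all UMIs, and Eif2ak4 was at -0.86 (-2.44 to 0.21), on 6 UMIs in cKO, where it was under 5 CPM. As Eif2ak4 reached 5 CPM only in WT, it could only differ downward, so the lower count is no support.

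In the megakaryocyte gate 1 member was higher and 2 lower, beside 16.7% and 27.1% of all genes. The lower ones were Eif2ak1 at -0.72 (-2.13 to 0.40) and Eif2ak4 at -0.71 (-2.89 to 0.84), on 8 and 4 UMIs in cKO. The direction of Eif2ak1 there was not stable, at 0.76 (-0.19 to 1.68) with another thinning seed and 0.03 with gates on all UMIs. In the Ccl5/Lck gate 1 was higher and 5 lower, beside 17.5% and 33.3%, and of those 5 only Eif2ak4 had an interval off 0. Eif2ak4 was at 19.3 CPM there among WT cells, on 10 UMIs, and at 4.91 CPM among cKO cells, on 7 UMIs and so under the 5 CPM limit there, a log2 ratio of -1.95 (-3.60 to -0.43). As Eif2ak4 reached the limit only in WT, it could only differ downward and is no support for that count. Its interval crossed 0 with another thinning seed, at -0.60 (-2.27 to 1.39), with gates on all UMIs, at -1.25, and with cells counted in each gate they meet, at -1.26. Among the cells that met no gate, where counts were highest, 1 member was higher and 1 lower past 0.5, beside 9.46% and 22.0% of all genes. Impact was the lower one at -0.59 (-0.74 to -0.43), from 23.1 to 15.4 CPM, and Eif2ak1 was at -0.41 (-0.58 to -0.25). Eif2ak3 had a lower ratio still, -0.82 (-1.20 to -0.42) on 84 and 163 UMIs, but did not reach 5 CPM and so was not counted. In the cells that met several gates 4 members were higher and 2 lower, beside 20.5% and 21.7% of all genes, and apart from Eif4ebp1 only Eif2ak4 had an interval off 0, on 13 UMIs in WT and 1 in cKO. Of these 6, Eif2ak3, on 2 and 5 UMIs with an interval from -0.37 to 5.63, and Eif2ak4 reached 5 CPM only in the library where they were high and so had to differ, which makes these counts no support.

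Across gates within a library, Impact had the clearest gradient among the sparse members. In WT it was highest in the HSC gate at 26.9 CPM and lowest in the GMP gate at 13.1 CPM (11.0 to 15.4), a log2 difference of 1.05 (0.57 to 1.50), while no neighbors in the order could be told apart. In cKO its highest and lowest gates, megakaryocyte at 18.5 CPM and GMP at 9.51 CPM, differed by 0.96 with an interval across 0 (-0.33 to 2.24). The extremes of Eif2ak1, Gcn1l1, Ppp1r15b and Eif4ebp2 could not be told apart in either library. Those of Eif2ak3 could not in WT, while in cKO its 9 UMIs in the GMP gate, 7.13 CPM, stood against 0 UMIs in the megakaryocyte gate, with an interval that barely excluded 0. The highest WT level of Eif2ak4, in the Ccl5/Lck gate, rests on 10 UMIs, or 5 with another thinning seed, and is not read as a gradient; its extremes in cKO had an interval across 0 (-0.26 to 2.41). Highest and lowest gates were picked from 5, which the intervals do not cover.

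Impact also differed by cell cycle markers in both libraries. Cells without S or G2/M markers held 25.7 CPM (23.1 to 28.5) in the WT library and 18.4 CPM (16.9 to 19.9) in the cKO library. Cells with G2/M markers held 16.9 and 12.4 CPM, lower by 0.61 (0.37 to 0.84) in WT and by 0.56 (0.36 to 0.77) in cKO on the log2 scale. Cells with S markers held 16.7 and 14.2 CPM. Impact was thus highest outside S and G2/M in each genotype. For Eif4ebp1 the log2 ratio, cKO over WT, was 1.72 in cells without these markers, 1.68 in S and 1.75 in G2/M. Its level was higher in S than in G2/M, at 157 CPM (150 to 164) and 142 CPM (136 to 148) in WT and at 503 CPM (495 to 511) and 479 CPM (470 to 488) in cKO, with intervals that did not meet in either library.

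Cells were also split by the summed UMIs of a list of ATF4 targets, genes for amino acid supply and stress signaling to which Eif4ebp1 does not belong, at 2000 UMIs a cell. In cKO the level of Eif4ebp1 was 260 CPM (247 to 274) in 671 cells with 0 target UMIs and 397 CPM (389 to 405) in 2427 cells with 1 to 2. It was 529 CPM (522 to 536) in 3437 cells with 3 to 5 target UMIs and 587 CPM (576 to 597) in 1843 cells with 6 or more. Each class was higher than the one before, and the last exceeded the first by 1.17 on the log2 scale (1.09 to 1.25), or by 0.88 when Asns, Trib3 and Atf5 were taken off the target list.

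In WT the same split gave 142 CPM (136 to 148) in 3355 cells with 0 target UMIs, 150 CPM (145 to 155) in 3988 cells with 1 to 2, and 174 CPM (160 to 189) in 584 cells with 3 to 5. The last of these exceeded the first by 0.29 (0.16 to 0.42), and only 16 WT cells had 6 or more, with 10 Eif4ebp1 UMIs among them. In the class with 0 target UMIs after thinning, the cKO level was still above WT, by a log2 ratio of 0.87 (0.78 to 0.97). Levels used all UMIs of these cells, so cells of this class can hold target UMIs that thinning left out. The class therefore does not show Eif4ebp1 in the absence of target expression. Atf4 itself was also higher in cKO in that class, with 104 CPM against 65.6 CPM in WT, a log2 ratio of 0.67 (0.52 to 0.81). With 3 to 5 target UMIs in both libraries the ratio was 1.60 (1.49 to 1.72). Atf4 differed between genotypes there too, by a log2 ratio of 1.95 (1.75 to 2.15), so the class was not matched for Atf4. Over the WT classes of 0, 1 to 2 and 3 to 5 target UMIs, Atf4 stood at 65.6, 69.4 and 61.3 CPM. Whether the same targets made up these UMIs in both libraries was not tested.

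**Figure D5:**
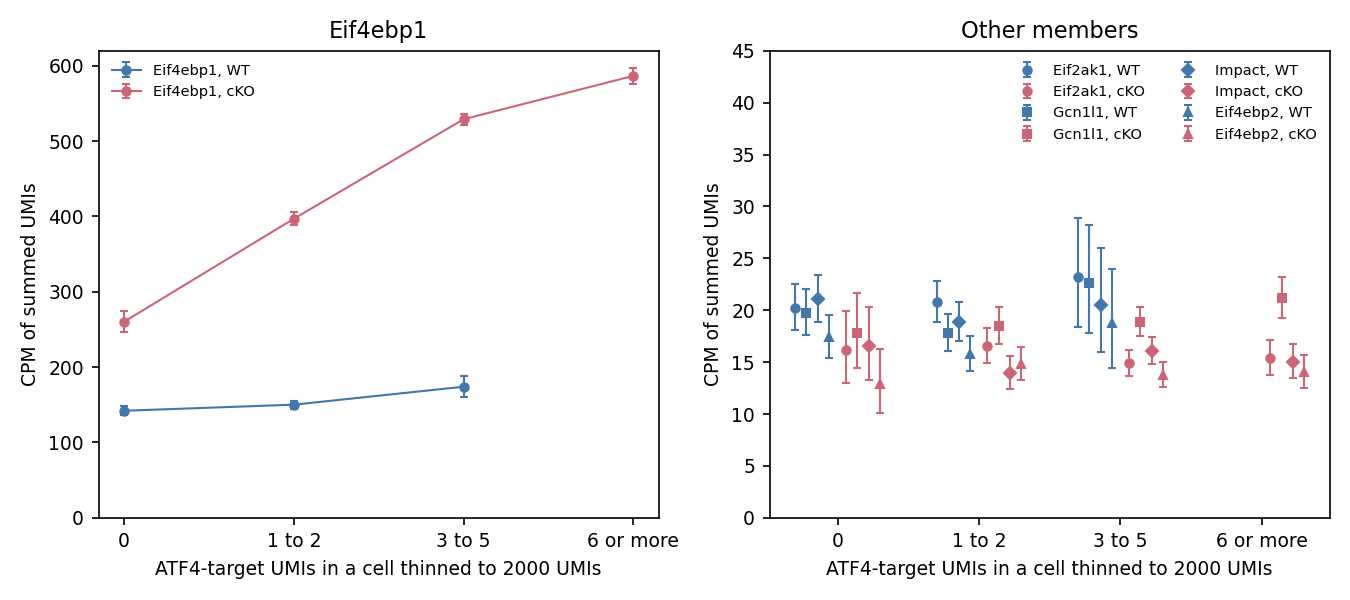
CPM of Eif4ebp1 (left) and of 4 other members (right) in cells grouped by summed ATF4-target UMIs at 2000 UMIs a cell, in WT (blue) and cKO (red), with 95% Poisson intervals; the class of 6 or more holds 16 WT cells and is drawn for cKO only. Eif4ebp1 went from 260 to 587 CPM over the cKO classes and from 142 to 174 CPM over the WT classes, while the 4 other members drawn stayed under 25 CPM.

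For the other 7 measured members the interval of the difference between cKO cells with 6 or more and with 0 target UMIs crossed 0. Eif2ak1 was at 16.2 CPM with 0 target UMIs and 15.4 CPM with 6 or more, and Impact at 16.5 and 15.0 CPM. Gcn1l1 was at 17.8 CPM (14.5 to 21.7) and 21.2 CPM (19.3 to 23.2), a log2 difference of 0.24 whose interval ran from -0.07 to 0.58; over cells with 1 to 2 target UMIs it was 0.20, with an interval just off 0. Eif4ebp2 was at 12.9 and 14.1 CPM. The log2 differences of Eif2ak3, Eif2ak4 and Ppp1r15b were -0.11 (-0.94 to 0.89), 0.22 (-0.29 to 0.80) and -0.26 (-0.64 to 0.16), which leaves room for slopes in either direction. Some steps between neighboring cKO classes had intervals off 0. Ppp1r15b changed by -0.43 (-0.81 to -0.01) from the class of 0 to that of 1 to 2. From that class to 3 to 5, Ppp1r15b changed by 0.28 (0.04 to 0.52) and Impact by 0.21 (0.01 to 0.41).

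The partners of these genes were taken from lists by function. eIF2 and its exchange factor eIF2B, the target of the kinases and the enzyme that phosphorylated eIF2 blocks, had 2 of 8 genes higher past 0.5 and none lower, beside 8.84% and 17.8% of all genes. Eif2s2, the beta subunit of eIF2, went from 399 to 738 CPM, a log2 ratio of 0.89, Eif2b3 was at 0.51, and Eif2s1, which encodes eIF2alpha itself, went from 160 to 222 CPM, a log2 ratio of 0.47. TMM scaling put Eif2s1 at 0.57 and so 3 of 8 past the limit, where 12.8% of all genes then were. The lowest was Eif2b2 at 0.04. Of 10 kinase and phosphatase partners found, 1 was lower past 0.5, Ppp1r15a, and none was higher, so that neither count exceeded the share over all genes, 17.8% lower and 8.84% higher. Hsp90ab1, a chaperone of the kinases, was the highest at 0.31, and Hspa5, the chaperone that binds PERK, was at -0.32. Ppp1ca, a catalytic subunit of the phosphatase, stood at 523 and 521 CPM.

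Of 13 genes of the cap-binding complex and its relatives, 0 were past 0.5 in either direction, beside 8.84% of all genes higher and 17.8% lower. Eif4e, which encodes the protein that the 4E-binding proteins hold, was the highest of them, with 128 CPM among WT cells and 165 among cKO cells, a log2 ratio of 0.37, and Eif4e3 was the lowest at -0.38. Eif4ebp1 was therefore higher relative to its partner as well: there were 1.16 Eif4ebp1 UMIs per Eif4e UMI in WT and 2.98 in cKO, a log2 difference of 1.36 (1.30 to 1.42, normal approximation) that does not depend on the scaling of the libraries.

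All 9 genes of the list for the ATF4 axis were higher past 0.5, where 8.84% of all genes were, from Cebpb at 0.90 to Chac1 at 6.53. That count depends on which genes the list holds: Atf3, a stress-induced transcription factor that is among the targets used for the cell classes but outside this list, named after its value was seen, was at 10.2 CPM for WT and 1.45 CPM for cKO, a log2 ratio of -2.81, and Ppp1r15a at -0.88 was counted among the phosphatase partners. Atf4 went from 67.5 to 216 CPM, a log2 ratio of 1.68 that was close in size to that of Eif4ebp1. Across the 10 profiles formed by 5 gates in each of the libraries, the genes whose log2 levels were most like those of Eif4ebp1 were Sars, with Pearson's r of 0.986, Atf5 at 0.977 and Lars at 0.977. Sars and Lars encode the seryl- and leucyl-tRNA synthetases. Eif4ebp1 was at 116 to 180 CPM over the WT gates and at 386 to 501 CPM over the cKO gates, so r mostly follows the difference between genotypes. Profiles of the same genotype also share a library and its depth, so r is given as a description. The remaining members had too few UMIs in some gate for such a ranking.

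The RefSeq promoter table (GRCm38.p6, 250 bases before to 50 after each start) had 6 windows for 5 members, Eif2ak1, Eif2ak3, Eif2ak4, Gcn1l1 and Eif4ebp2, and no entry for Impact, Ppp1r15b, Eif4ebp1 and Eif4ebp3. The letters TGATGNAA, the core of the sequence that ATF4 and its C/EBP partners bind, were in 0 of these windows on either strand, beside 3.97% of 32851 promoters. At that share a count of 0 in 6 windows was likely, so it does not set these members apart from other genes.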

How the data were processed

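The authors aligned the reads to GRCm38 (mm10) and counted UMIs per gene and barcode with Cell Ranger 6.0.0, and deposited 1 matrix of raw counts per library. The labels name the 3' kit v2 and the study's methods another version. Cells had over 200 genes, under 4000 (WT) or 4500 (cKO) genes, under 10% (WT) or 5% (cKO) mitochondrial and under 5% hemoglobin UMIs. These limits left 8763 and 9151 cells, of which 615 and 668 likely doublets, scored from simulated pairs, were removed. Counts were summed over cells. CPM carry exact Poisson intervals, shares exact Clopper-Pearson intervals, and log2 ratios (0.5 prior counts) exact conditional binomial intervals. PCR duplicates were collapsed by the UMIs.

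Gates needed 2 markers in a cell thinned to 2000 UMIs (3 markers and 10 UMIs for GMP, 3 and 20 for neutrophils, 3 and 5 for MHC class II) and used cells in 1 gate only; 205 WT and 105 cKO cells were too shallow. The members and lists were chosen with earlier results of these data known. All members and the extremes of each list were named; others in a list were named after their values were seen. Likeness needed 20 UMIs in every profile. The ratio script was tested on simulated data. Alternatives were other scalings (TMM of edgeR 4.0.16, median of ratios), cell filters, gate rules and limits; TMM scaling of the lists and intervals under other gate rules were chosen after seeing the data. Python 3.11 was used.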

Additional observations from a re-analysis of the deposited data

How the results depend on the processing

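Eif4ebp1 stayed higher in cKO under all 10 alternatives over all cells, with log2 ratios from 1.64 to 1.83: 1.82 with TMM scaling, 1.83 with median-of-ratios scaling, 1.82 with mitochondrial and ribosomal protein genes left out of the total, 1.64 with each cell scaled before averaging and 1.64 with cells thinned to 2000 UMIs. Impact was at -0.59 with each cell scaled, -0.67 in thinned cells and -0.59 with the same mix of gates in both libraries, and in each of these 1 member was lower past 0.5 in place of 0, beside 19.2%, 19.3% and 20.1% of all genes. Eif2ak3 was at -0.44 with the same mix of gates and -0.37 in cells with no S or G2/M call, and with all genes that had a UMI it was the 1 lower member. Gcn1l1 was at -0.22 in thinned cells. Without Asns, Trib3 and Atf5 among the targets, the Eif4ebp1 difference in cKO was 0.88 for 6 or more and 0.79 for 3 to 5 over 0 target UMIs, beside 1.17 and 1.02.

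Counts of members past 0.5 in gates rest on few UMIs and moved often. In the HSC gate the lower count was 4 with 1 more marker and 2 with gates on all UMIs or another thinning seed. In the LMPP gate the higher count was 2 with doubled UMI sums, with cells in each gate they meet, without mitochondrial and ribosomal protein genes, with median-of-ratios scaling and with another seed, and the lower count was 2 with cells in each gate they meet and 3 with another seed. In the GMP gate the higher count was 1 with halved sums, gates on all UMIs and another seed and 3 with median-of-ratios scaling, and the lower count was 2 without doublet removal. In the megakaryocyte gate the higher count was 2 with cells in each gate they meet and with gates on all UMIs and 3 with another seed, and the lower count was 1 without doublet removal, 0 with another seed and 3 with gates on all UMIs. In the Ccl5/Lck gate the lower count was 3 with cells in each gate they meet and with gates on all UMIs and 4 with halved sums, doubled sums and another seed, and the higher count was 2 with another seed. The cause of these changes was not tested. Of 320 single member values in gates, 311 stayed inside the main interval and 9 moved out of it, but many of these intervals are wide: Eif2ak4 in the Ccl5/Lck gate ran from -1.98 to -0.60, and Eif2ak1 in the megakaryocyte gate from -0.89 to 0.76. With 1 more marker the LMPP, GMP, megakaryocyte and Ccl5/Lck gates, and with doubled sums the GMP gate, fell under 50 cells and gave no value.

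No paired analysis was possible because each genotype has 1 library. For the same reason no alternative leaves out a library. Depth limits all members but Eif4ebp1: within gates most of their intervals span more than 1 on the log2 scale.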
